A study of Mus musculus with 64 samples.

Results

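Adipocyte differentiation and lipid storage genes are represented here by 10 named genes: the transcription factors Pparg, Cebpa, Cebpb and Cebpd, the fatty acid handling genes Fabp4 and Lpl, the lipases Lipe and Pnpla2, the triglyceride synthesis gene Dgat2 and the adipocyte membrane protein gene Apmap. They were chosen by name, and their NCBI gene IDs are 10 of the 36332 distinct IDs in the table of expression values. All 10 were matched, and all 10 passed the filter on low values in each of the 3 tissues.

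The libraries are 64 RNA sequencing libraries from mice, in 12 groups made by 3 tissues (omental adipose tissue, liver and skeletal muscle), 2 genotypes and 2 ages (5 and 20 months). Knockout mice (MycKO, here KO) came from a cross of a line with a tamoxifen-activated Cre recombinase at Gt(ROSA)26Sor with a line that carries the conditional Myc allele Myctm2Fwa, and wild-type mice (WT) are labelled C57/B6. Mice of every group, WT included, are labelled as given 5 daily tamoxifen injections of 75 mg/kg around weaning, from a body weight of 15 g. Cre at this locus is not limited to a cell type, so Myc loss was not directed to adipocytes, and the genotype, the Cre transgene and the strain background cannot be told apart in these groups. Each genotype has 6 young and 5 older libraries in adipose tissue and in liver. Skeletal muscle has 6 WT and 4 KO young libraries, and 5 per genotype among the older. Libraries are named by their label codes, where a leading K stands for KO and W for WT, and F, L or S for the tissue. Codes of older mice read 18 in place of the 20 months that their age label gives, and the age label is used here.

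Adipocytes form when preadipocytes turn on a cascade of transcription factors. Cebpb and Cebpd act early, and Pparg and Cebpa follow, sustain each other and switch on the genes of lipid storage. In the mature cell, lipoprotein lipase (Lpl) releases fatty acids from circulating lipoproteins, the carrier Fabp4 binds them inside the cell, Dgat2 joins a fatty acid to diacylglycerol in the last step of triglyceride synthesis, Pnpla2 (adipose triglyceride lipase) starts the breakdown of stored triglyceride and Lipe (hormone-sensitive lipase) continues it. Apmap encodes a membrane protein that appears late in adipocyte differentiation. Liver and muscle use many of the same genes for their own lipid metabolism.

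Annotated positions are on GRCm38.p6, a build named in the submitters' processing notes. Apmap lies on chromosome 2 from 150583080 to 150608567 on the minus strand, and Cebpb on the same chromosome from 167688915 to 167690432 on the plus strand. Chromosome 7 holds 4 of the genes: Lipe from 25379527 to 25398486 and Dgat2 from 99153663 to 99182713, both on the minus strand, and Cebpa from 35119293 to 35121928 and Pnpla2 from 141455188 to 141460743, both on the plus strand. Fabp4 is on chromosome 3 from 10204342 to 10208616 on the minus strand. Pparg (chromosome 6, 115360879 to 115490404), Lpl (chromosome 8, 68880555 to 68906932) and Cebpd (chromosome 16, 15887286 to 15889545) are on the plus strand.

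The 250 bases before 3 annotated starts are shown, from RefSeq sequence of GRCm38.p6, each 5′ to 3′ on the strand of its gene. Apmap is shown because it passed the test between genotypes in adipose tissue, and the Lipe and Pparg starts because they are the ones of the 10 genes' annotated starts in which a motif match was found. Capitals mark the matches, and the Apmap window has none.
Apmap, chr2:150608568-150608817, minus strand: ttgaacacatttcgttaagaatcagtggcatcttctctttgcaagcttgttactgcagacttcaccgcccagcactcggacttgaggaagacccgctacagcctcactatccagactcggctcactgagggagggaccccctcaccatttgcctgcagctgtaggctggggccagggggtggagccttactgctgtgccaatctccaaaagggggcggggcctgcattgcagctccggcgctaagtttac
Lipe, chr7:25395988-25396237, minus strand: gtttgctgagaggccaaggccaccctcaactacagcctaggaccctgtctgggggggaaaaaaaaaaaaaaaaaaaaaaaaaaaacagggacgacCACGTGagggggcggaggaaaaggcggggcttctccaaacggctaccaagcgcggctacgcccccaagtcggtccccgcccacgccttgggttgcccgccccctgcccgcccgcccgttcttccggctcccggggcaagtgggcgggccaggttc
Pparg, chr6:115421816-115422065, plus strand: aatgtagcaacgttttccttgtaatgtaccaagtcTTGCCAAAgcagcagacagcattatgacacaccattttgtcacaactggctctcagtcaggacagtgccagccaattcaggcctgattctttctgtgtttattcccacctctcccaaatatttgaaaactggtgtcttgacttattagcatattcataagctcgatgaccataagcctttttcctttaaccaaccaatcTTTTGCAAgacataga
The motifs searched on both strands were the E-box CACGTG, which Myc and related factors can bind, the C/EBP core TTGCNNAA and the PPAR direct repeat (AGGTCA, any 1 base, AGGTCA). The Lipe window holds 1 E-box, which begins 155 bases before the start. The Pparg window holds 2 C/EBP cores, TTGCCAAA at 215 bases and TTTTGCAA (the core on the opposite strand) at 16 bases before the start. Of 32851 promoter windows of this length, 6.02% hold the E-box, 9.56% the C/EBP core and 0.0335% the direct repeat. The windows searched covered 6 of the 10 genes (Pparg, Cebpa, Cebpb, Lipe, Pnpla2 and Apmap), and Cebpd, Fabp4, Lpl and Dgat2 were not among them. These matches describe the letters of the windows and are not evidence of binding.

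Values are in the deposited scale, called CPM after its header, and differences are log2 differences of CPM + 1 with their standard error from limma. A gene is called at a Benjamini-Hochberg adjusted p under 0.05 over all genes tested in the tissue. Depth ranged from 15.4 to 28.5 M (M, mega) reads on genes per library. Myc, the targeted gene, was lower in KO at 5 months in adipose tissue (5.76 against 17.7 CPM, adjusted p = 0.017) and liver (2.59 against 19.6 CPM, adjusted p = 0.00093), and its mean was below WT without passing the test in muscle and in each tissue at 20 months. The labels do not say whether libraries of a group came from separate animals, so the p-values measure the spread between these libraries. Of the 5-month libraries, 12 held Xist above 1 CPM, 2 in each 5-month group, and no 20-month library did. Sex is not given in the labels used here. In 4 of the 5-month adipose libraries the summed level of 8 epididymis markers exceeded 100 CPM: K5F4284 (6231 CPM), K5F5248 (4000 CPM), K5F5218 (956.5 CPM) and W5F5299 (918 CPM). In the other adipose libraries this sum was at most 0.958 CPM. The 5-month WT muscle library W5S5299 also exceeded 100 CPM (126 CPM), where the median of its group was 0.158 CPM. Fits without the libraries with epididymis markers were run in adipose tissue only.

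In omental adipose tissue of 5-month mice, Apmap was the only one of the 10 genes called between genotypes, and it was lower in KO. In the 6 WT libraries Apmap ranged from 148 to 189 CPM with a median of 183, and in the 6 KO libraries from 55.7 to 140.0 CPM with a median of 89.7. Every KO library was below every WT library. The difference was -0.94 ± 0.18 (SE; adjusted p = 0.043), and 0.105% of the 14286 genes tested were called in this comparison, 0.07% as lower. The call did not hold throughout: edgeR's quasi-likelihood test gave an adjusted p of 0.0844, and without the 4 libraries with epididymis markers the difference was -0.59 (adjusted p = 0.221). It was also lost when any 1 of 7 libraries was left out, with adjusted p from 0.0817 to 0.125 (K5F4284, K5F5248, W5F5005, W5F5006, W5F5041, W5F5042 and W5F5277).

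Neither lipase gene was called at this age. Lipe ranged from 890 to 1872 CPM in WT (median 1291) and from 210 to 872 CPM in KO (median 735). The 2 ranges did not overlap, and the difference was -1.06 ± 0.28 with an adjusted p of 0.175, so it was not called. Pnpla2 had nearly equal means, 2781 ± 1496 CPM (SD, n = 6) in KO and 2754 ± 941 CPM (SD, n = 6) in WT. The fit on libraries without Xist called Lipe (-1.50, adjusted p = 0.0261), Cebpa (-1.28, adjusted p = 0.0342) and Apmap (-1.05, adjusted p = 0.0181), all lower in KO. Without the 4 libraries with epididymis markers the Lipe difference shrank to -0.63 (adjusted p = 0.289) and the Cebpa difference to -0.30 (adjusted p = 0.726).

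Among the transcription factors, Cebpa had a median of 571 CPM in WT (249 to 777) and 396 CPM in KO (136 to 428), a difference of -0.70 ± 0.30 (adjusted p = 0.38). Pparg, Cebpb and Cebpd differed by -0.21, 0.14 and -0.06, each with a standard error above the difference itself. Cebpb was the 1 gene of the 10 with a difference above 0. Cebpb and Cebpd were widely spread in KO: Cebpb ranged from 22.6 to 288 CPM and Cebpd from 19.0 to 154 CPM, and K5F5218 was the lowest for both.

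For fatty acid handling and synthesis, Fabp4 had means of 7073 ± 4658 CPM in KO and 9567 ± 3953 CPM in WT (SD, n = 6 each; adjusted p = 0.571). Lpl had means of 4165 ± 2094 and 5174 ± 1210 CPM (adjusted p = 0.61). Dgat2 split the WT libraries: 3 had 14.7, 21.2 and 40.5 CPM and the other 3 had 268, 553 and 902 CPM. In KO, 5 libraries lay between 20.5 and 67.5 CPM and K5F5218 had 342 CPM. The ranges overlapped, and the Dgat2 difference of -1.01 ± 0.87 was not called (adjusted p = 0.679). Over the 10 genes, 9 differences were below 0, with a median of -0.49 beside -0.04 over all genes tested.

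The median of the adipocyte marker sum of 10 genes was also lower in KO. The sum ranged from 13270.5 to 22351 CPM in 5-month WT (median 18799.5) and from 5842 to 21307 CPM in 5-month KO (median 10280.4). None of the 10 markers was at 0 in any of the 4 adipose groups. The lowest KO sums were in the libraries with epididymis markers, K5F5218 (5842 CPM), K5F5248 (7301 CPM) and K5F4284 (8063 CPM). The other KO libraries had 12498, 14994 and 21307 CPM. The WT library with epididymis markers, W5F5299, had 13994 CPM. In bulk tissue, fewer adipocytes and less of an RNA per adipocyte cannot be told apart. K5F4284, which had the highest epididymis sum, was the lowest KO library for Cebpa, Fabp4, Lipe and Lpl. K5F5218 was the lowest for Apmap, Pnpla2, Cebpb and Cebpd. The part of the epididymis markers in the differences was not tested.

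**Figure D1:**
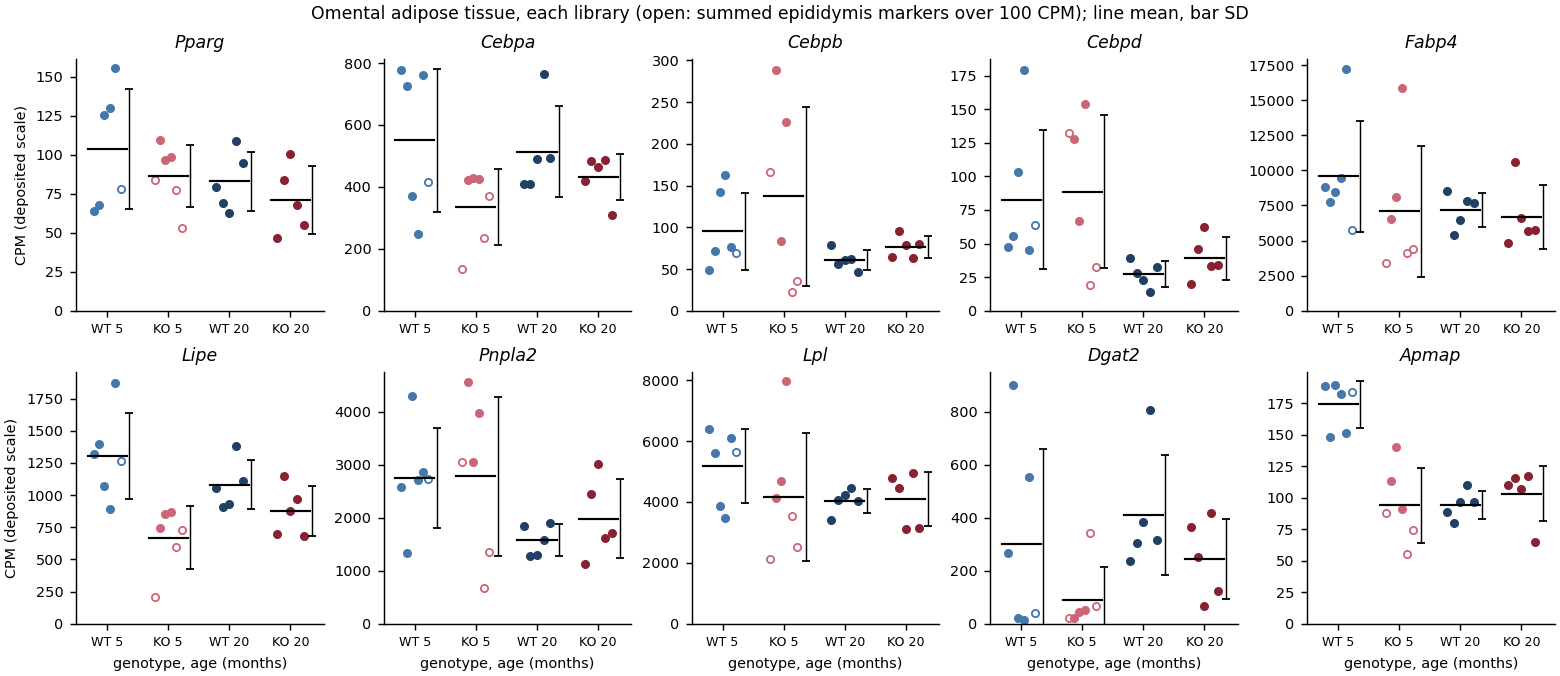
Deposited CPM of the 10 genes in each omental adipose library, by genotype and age in months; horizontal lines are group means, bars are SD, and open points are the 4 libraries with summed epididymis markers over 100 CPM. For Apmap every 5-month WT point lies above the points of the other 3 groups, and for Dgat2 the WT points split between 14.7 and 902 CPM.

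At 20 months no gene of the 10 was called between genotypes in adipose tissue, where 0% of all genes were called by limma (321 genes had an unadjusted p under 0.05, and DESeq2 called 10). None of the 10 had an unadjusted p under 0.05, and edgeR and DESeq2 called none of them. Their differences ranged from -0.89 for Dgat2 to 0.48 for Cebpd, with a median of -0.07 beside 0.01 over all genes. Apmap had 80.0, 88.3, 96.5, 96.9 and 109.8 CPM in the 5 WT libraries, and 65.0, 107, 110.3, 116 and 117 CPM in the 5 KO libraries. The groups overlapped, with a difference of 0.10 ± 0.20. The change of the Apmap genotype difference from 5 to 20 months was 1.04 ± 0.27 (unadjusted p = 0.000872, adjusted p = 0.998), so it did not pass the test over all genes.

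Between 5 and 20 months, adipose Apmap fell in WT and was not called in KO. In WT it went from 174 ± 18.8 CPM (SD, n = 6) to 94.3 ± 11.1 CPM (SD, n = 5), a difference of -0.88 ± 0.19 (adjusted p = 0.00717), and no 20-month library reached the lowest 5-month library. In this comparison 10.8% of genes were called, 3.36% as lower. The call held in all 11 fits that left out 1 library, and in the 8 other alternatives. In KO the means were 93.9 ± 29.7 CPM at 5 months and 103 ± 21.7 CPM at 20 months, a difference of 0.16 ± 0.19 (adjusted p = 0.577). The genotype comparison and the WT age comparison share the 5-month WT libraries.

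Cebpd lay just outside the threshold in the WT age comparison. Its 6 young WT libraries ranged from 45.5 to 179 CPM (median 59.7) and its 5 older ones had 14.2, 22.95, 28.3, 32.3 and 39.4 CPM. The ranges did not overlap, and the difference was -1.44 ± 0.47 with an adjusted p of 0.0523. The edgeR test called it (-1.60, adjusted p = 0.0376), and without the libraries with Xist the difference was -0.99 (adjusted p = 0.209). Of the other genes, Dgat2 had the only difference above 0 in WT, 1.74 ± 0.91 (adjusted p = 0.2), with all 5 older WT libraries between 238 and 806 CPM.

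In KO adipose tissue no gene of the 10 was called between ages, where 14.2% of all genes were. None of the 10 had an unadjusted p under 0.05, where 4603 of all 14286 genes tested had. Among the 10, edgeR called none and DESeq2 called Cebpd (-1.27, adjusted p = 0.0302). Dgat2 differed by 1.86 ± 0.91 (adjusted p = 0.163) and Cebpd by -0.90 ± 0.47 (adjusted p = 0.192). Without the libraries with epididymis markers, Cebpb (-1.21, adjusted p = 0.0353) and Cebpd (-1.56, adjusted p = 0.0266) were called lower at 20 months. The adipocyte marker sum of older WT (5724 to 9643 CPM, median 8246) lay below the young WT range at every library. That of older KO (5586 to 10441 CPM, median 8176) overlapped the young KO range of 5842 to 21307 CPM. The overlap lay in the young KO libraries with epididymis markers (5842, 7301 and 8063 CPM). The other young KO libraries (12498, 14994 and 21307 CPM) lay above every older KO library. Of the 10 markers, the secreted factors Cfd (-2.83 in WT and -1.94 in KO) and Retn (-2.43 and -2.30) were called lower with age. The hormone gene Lep was called higher in KO (2.98). Cfd had means of 8780 CPM in young and 1319 CPM in older WT, so much of the fall of the WT sum was Cfd. The sum is therefore not a measure of adipocyte content alone. The median difference of the 10 markers was -0.52 in WT and 0.19 in KO.

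Markers of other cell types also differed with age in adipose tissue. Of 5 T cell markers tested, 4 were called higher in WT and none in KO, and of 5 B cell markers tested, 4 were called higher in WT and 3 in KO. The B cell sum ranged from 26.5 to 109 CPM in young WT and from 82.8 to 355 CPM in older WT, and the T cell sum from 4.49 to 12.4 and from 13.8 to 50.01 CPM. The T cell marker Trbc2 and the B cell marker Ighm were at 0 in all these libraries. Of 7 mesothelium markers, 1 was called lower in WT (Krt19, -1.85). The part of these markers in the age differences of the 10 genes was not tested.

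**Figure D2:**
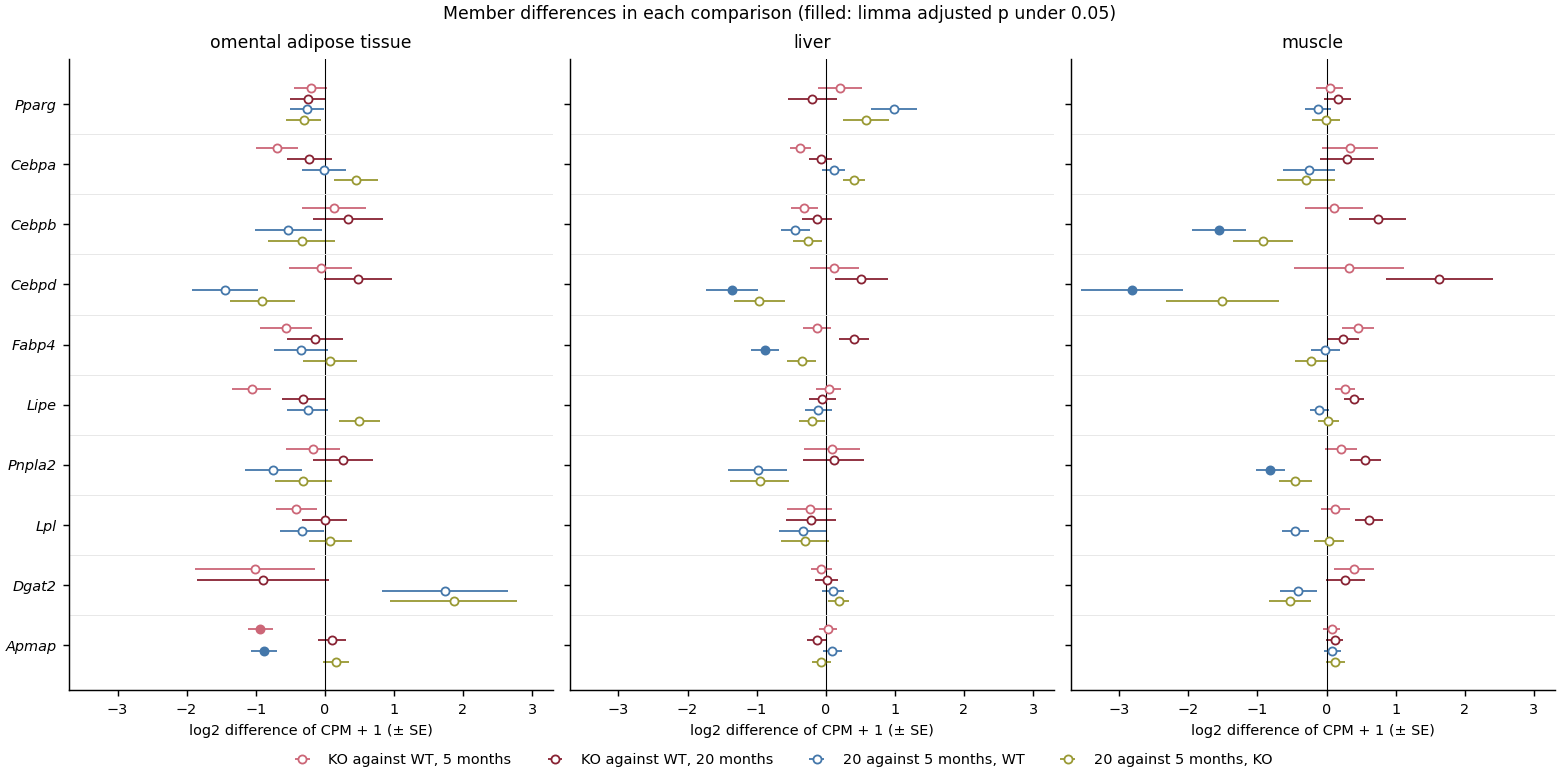
Log2 differences of CPM + 1 with their standard errors for the 10 genes in 4 comparisons and 3 tissues; filled points have a limma adjusted p under 0.05. Filled points are Apmap in adipose tissue, Fabp4 and Cebpd in liver, and Cebpb, Cebpd and Pnpla2 in muscle, all below 0.

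Across the 22 adipose libraries the 10 genes varied together in some pairs and in opposite directions in others. Of their 45 pairs, 21 had an adjusted p under 0.05 for Pearson's r (100000 permutations each, two-sided), 18 with r above 0 and 3 with r below 0. Libraries were permuted across the genotype and age groups, so group differences enter the p-values. The share of such pairs among all genes was not computed, so the count is not shown to be particular to the 10. Cebpa and Lipe had r = 0.876 (Spearman's rho 0.739), Cebpb and Cebpd r = 0.83 (rho 0.816), and Cebpd and Pnpla2 r = 0.821 (rho 0.857). Each of these permutation p-values for r was 1e-05, the smallest that the permutations can give, and 0.000112 after adjustment. Without the 2 libraries farthest from the median of the first gene, r was 0.781, 0.813 and 0.84. With group means removed it was 0.857, 0.872 and 0.798. Within the young WT libraries r was 0.868, 0.911 and 0.348, and within the young KO libraries 0.955, 0.979 and 0.955.

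All 3 pairs with r below 0 included Dgat2. Dgat2 and Cebpd had r = -0.806 (permutation p = 1e-05, adjusted p = 0.000112) and rho = -0.745 (permutation p = 8e-05, adjusted p = 0.0009). With group means removed r was -0.751, without the 2 farthest libraries -0.772, and without the 4 libraries with epididymis markers -0.826. Within the 12 young libraries r was -0.71, within the 10 older ones -0.836, and within the 6 young WT and 6 young KO libraries -0.838 and -0.85. The WT library with the highest Cebpd, W5F5042 (179 CPM), had the lowest Dgat2 (14.7 CPM). The KO library with the lowest Cebpd, K5F5218 (19.0 CPM), had the highest Dgat2 among young KO libraries (342 CPM). Dgat2 had r = -0.681 with Pnpla2 (adjusted p = 0.00276) and -0.645 with Cebpb (adjusted p = 0.00417) by the same permutation test. The 45 relations come from the same libraries, share their scaling and were singled out after their values were seen.

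**Figure D3:**
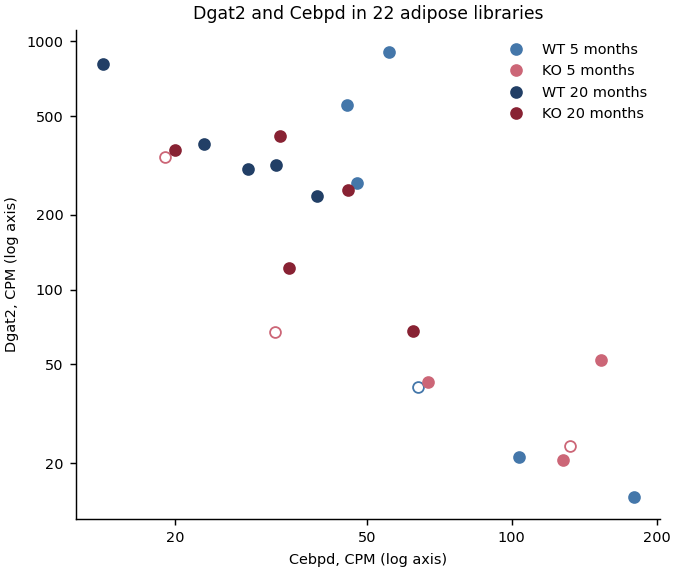
Dgat2 against Cebpd, deposited CPM on log axes, in 22 adipose libraries coloured by genotype and age; open points are the 4 libraries with summed epididymis markers over 100 CPM. Libraries with high Cebpd have low Dgat2 (r = -0.806 on the log2 scale), in both genotypes.

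Among all other genes, those most like the mean standardised level of the 10 over the 22 adipose libraries were Adipoq (r = 0.932), Acadvl (0.919), Coq6 (0.911), Bcap31 (0.908) and C030006K11Rik (0.896). Those most like Pparg alone included Mterf3 (0.826) and Prxl2a (0.792). Adipoq encodes the adipocyte hormone adiponectin and Acadvl an enzyme of mitochondrial fatty acid oxidation. These values rank genes and carry no test.

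The further genes of the pathway came from 5 lists, and none of them held a gene called between genotypes in any tissue at either age. In these comparisons 0% to 0.105% of all genes were called. With age, adipose tissue of WT mice had 6 called genes among the 15 of fatty acid uptake and triglyceride synthesis, 1 higher and 5 lower, where 10.8% of all genes were called. They include Gpam (-1.55) and Dgat1 (-1.54), which act at the first and last steps of triglyceride synthesis, the fatty acid transporter Slc27a1 (-1.42), and the glycerol channel Aqp7 (1.32). The list's median difference was -0.52 beside 0.01 over all genes. In KO the same list had 3 called higher and 1 lower of 15, where 14.2% of all genes were called. These were Mogat2 (1.80), Aqp7 (1.22), the fatty acid receptor Cd36 (1.12) and Dgat1 (-1.05). Mogat2 was low, with means of 0.987 CPM at 5 months and 5.57 CPM at 20 months.

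Klf15, an activator of adipogenesis that is also induced by glucocorticoids, was the single called gene of the 15 activators in adipose tissue of both genotypes, lower at 20 months by -1.62 in WT and -1.20 in KO. None of 10 adipogenesis inhibitors was called there. Of the 12 genes of lipolysis control, Prkar2b, a regulatory subunit of protein kinase A, was called in KO (1.64) and none in WT. Of 10 partners of lipoprotein lipase, the lipoprotein receptor Vldlr was higher at 20 months in both genotypes (0.96 in WT and 0.90 in KO), and Sel1l in KO (0.56).

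The order of levels per kilobase of exon in 5-month WT differed between tissues. In adipose tissue Fabp4 led with a mean of 10677 CPM per kb, followed by Lpl (1257), Pnpla2 (1049), Lipe (238), Cebpa (209), Dgat2 (133), Apmap (77.9), Cebpb (63.2), Pparg (43.6) and Cebpd (22.02). Each neighbouring pair in this order overlapped between libraries, except Fabp4 and Lpl, and Pnpla2 and Lipe. In liver the order was led by Cebpa (271), Dgat2 (231), Cebpb (187) and Pnpla2 (170), and Pparg was lowest (4.16). The ranges of these 4 leading genes overlapped from neighbour to neighbour, and those of Pnpla2, Apmap (25.9), Fabp4 (15.4) and Cebpd (6.55) were separate. In muscle it was led by Pnpla2 (402), Fabp4 (371), Lpl (256), Cebpb (142) and Cebpd (119.7), and Pparg was again lowest (2.95). In muscle neighbours overlapped except Dgat2 (40.2) and Apmap (14.0).

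In CPM, 9 of the 10 genes were called between adipose tissue and liver in 5-month WT, 7 higher in adipose tissue and 2 lower, where 68.1% of all genes were called, 36.2% as higher and 31.9% as lower. The log2 difference was 9.27 ± 0.29 for Fabp4, 8.07 ± 0.31 for Lpl, 5.51 ± 0.25 for Lipe and 3.28 ± 0.29 for Pparg. Cebpb (-1.64, adjusted p = 0.00198) and Dgat2 (-2.21, adjusted p = 0.00571) were lower in adipose tissue, and Cebpa was not called (-0.49, adjusted p = 0.176). The deposited scale sums to 0.529 to 0.753 M in adipose libraries and 1.18 to 1.64 M in liver libraries. Scaling to equal recovered depth moved the median difference over all genes by 0.87 between adipose tissue and liver and by 0.66 between adipose tissue and muscle, and the share of higher genes among those called from 53.1% to 85% and from 57.3% to 81.3%. At that scale the Cebpb difference was -0.51 (adjusted p = 0.262) and the Dgat2 difference -1.08 (adjusted p = 0.166), so both calls rest on the deposited scale, and Cebpa, uncalled on both scales, was above 0 there (0.65). The other 7 calls held.

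Between adipose tissue and muscle, 9 of the 10 were called, 7 higher and 2 lower in adipose tissue, with 66.5% of all genes called, 38.1% as higher and 28.4% as lower. Cebpa had the highest difference (5.37 ± 0.32), and Cebpd was lower in adipose tissue (-2.11 ± 0.56, adjusted p = 0.00129). Cebpb was lower by the deposited scale (-1.09, adjusted p = 0.0343) and not at equal recovered depth (-0.23, adjusted p = 0.631), and its call was lost on leaving out any 1 of 8 libraries (W5F5005, W5F5006, W5F5277, W5F5299, W5S5004, W5S5007, W5S5041 and W5S5042; adjusted p from 0.0558 to 0.0857). Between liver and muscle 8 of the 10 were called, 3 higher in liver (Cebpa, Dgat2 and Apmap) and 5 lower (Fabp4, Lpl, Cebpd, Pnpla2 and Lipe), with 69.6% of all genes called, 34.3% as higher and 35.3% as lower. The labelled tissues carried their markers: the hepatocyte sum was at least 106066 CPM in every liver library and the skeletal muscle sum at least 135440 CPM in every muscle library.

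**Figure D4:**
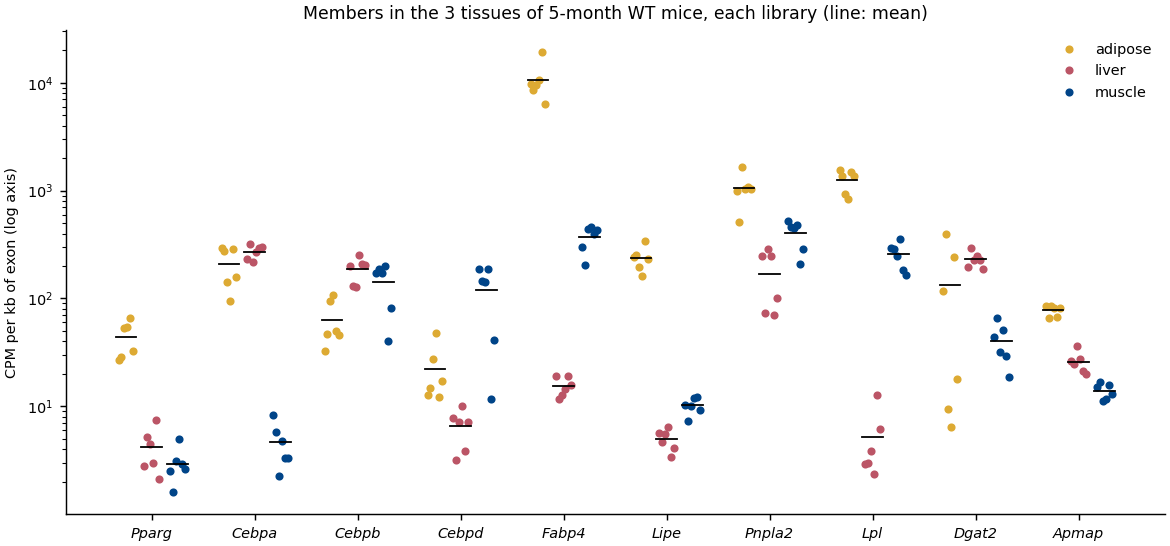
Deposited CPM per kilobase of exon of the 10 genes in each 5-month WT library of the 3 tissues, on a log axis; lines are means. Fabp4 spans from a mean of 15.4 in liver to 10677 in adipose tissue, and Dgat2 in adipose tissue spans the range of the other tissues.

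In liver no gene of the 10 was called between genotypes, at 5 months with 0.0696% of all genes called and at 20 months with 0.0232%. The differences ranged from -0.37 (Cebpa) to 0.21 (Pparg) at 5 months and from -0.21 (Lpl) to 0.52 (Cebpd) at 20 months. Cebpa at 5 months was the only one of these 20 comparisons with an unadjusted p under 0.05 (0.0274), and edgeR and DESeq2 called none. Of all 12924 genes tested, 897 at 5 months and 750 at 20 months had an unadjusted p under 0.05.

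With age, Fabp4 and Cebpd fell in WT liver, where 7.19% of genes were called, 4.36% as lower. Fabp4 ranged from 10.4 to 17.1 CPM at 5 months (median 13.6) and had 5.47, 6.28, 6.33, 8.37 and 8.78 CPM at 20 months. The ages did not overlap, the difference was -0.88 ± 0.21 (adjusted p = 0.0138), and the call held in all 11 fits that left out 1 library. Cebpd ranged from 11.9 to 37.8 CPM (median 26.8) and had 6.40, 6.42, 8.32, 9.10 and 12.5 CPM at 20 months. Its difference was -1.36 ± 0.37 (adjusted p = 0.0297), its ranges overlapped, and the call was lost on leaving out any 1 of 6 libraries (W18L03, W18L04, W18L05, W5L5004, W5L5041 and W5L5042; adjusted p from 0.0572 to 0.0765) and without the libraries with Xist (-1.12, adjusted p = 0.143).

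In the same comparison 1 of 6 macrophage markers was called lower and none had a difference above 0 (median -0.49), with sums of 134 to 307 CPM in young WT and 124 to 207 CPM in older WT. Of 6 hepatocyte markers, 2 were called lower (Ahsg at -0.88 and Fgb at -0.80). The part of these markers in the Fabp4 and Cebpd differences was not tested.

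Pparg, which is low in liver, had a median of 8.85 CPM in young WT (5.09 to 17.6) and 18.2 CPM in older WT (13.7 to 26.6), a difference of 0.99 ± 0.33 that was not called (adjusted p = 0.071). In KO liver no gene of the 10 was called with age, where 2.99% of all genes were. Cebpd (-0.96) and Fabp4 (-0.35) had differences below 0 there too. Of the 10, 3 had an unadjusted p under 0.05, as did 2484 of all 12924 genes tested. DESeq2 called Cebpd (adjusted p = 0.0452) where edgeR called none of the 10. Of the pathway lists, Mogat1, an acyltransferase of triglyceride synthesis, was higher at 20 months in WT (1.95) and KO (1.63) liver, and Cd36 in KO (1.77). The activator Zfp423 was higher in both (1.31 and 0.83), Stat5a in WT (0.67), and Gpihbp1, which anchors lipoprotein lipase to capillaries, was lower in KO (-0.80). Mogat1 and Zfp423 were low in liver, with group means from 1.03 to 7.04 CPM and from 0.635 to 3.02 CPM.

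In skeletal muscle no gene of the 10 was called between genotypes at either age, with 0% of all genes called at 5 months (543 had an unadjusted p under 0.05, edgeR called 0 and DESeq2 5) and 0.0302% at 20 months. At 5 months none of the 10 had an unadjusted p under 0.05, and at 20 months 4 had, as did 1821 of all 13237 genes tested. At both ages, neither edgeR nor DESeq2 called any. All 10 differences were above 0 at both ages, with medians of 0.24 and 0.35 beside 0.01 and -0.03 over all genes. At 20 months markers of other cell types lay above 0 as well, with none called: 6 of 6 macrophage markers (median 0.54), 5 of 5 of endothelium (0.23), 4 of 4 erythroid (0.79) and 9 of 10 adipocyte markers (0.34). The macrophage sum ranged from 40.6 to 126 CPM in older WT and from 93.9 to 229.6 CPM in older KO. The part of these markers was not tested. At 20 months Lpl had 578 to 840 CPM in WT and 896 to 1541 CPM in KO, without overlap (0.62 ± 0.21, adjusted p = 0.295), and Cebpd had the highest difference (1.63 ± 0.78, adjusted p = 0.361).

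With age, Cebpb, Cebpd and Pnpla2 fell in WT muscle, where 18.6% of genes were called, 7.68% as lower. Cebpd ranged from 43.6 to 710 CPM at 5 months (median 539) and had 11.3, 36.03, 43.0, 84.2 and 107 CPM at 20 months, a difference of -2.82 ± 0.74 (adjusted p = 0.0156). Cebpb ranged from 60.4 to 299 CPM (median 259) and had 50.8, 55.5, 59.1, 69.7 and 84.4 CPM at 20 months, a difference of -1.55 ± 0.39 (adjusted p = 0.0129). Pnpla2 ranged from 546 to 1378 CPM (median 1189) and had 483, 541, 568, 606 and 679 CPM at 20 months, a difference of -0.81 ± 0.22 (adjusted p = 0.0162). In all 3 genes the young library W5S5277 lay within the older range and W5S5299 was the next lowest.

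All 3 calls were lost without the libraries with Xist: the differences were then -2.33 for Cebpd (adjusted p = 0.103), -1.27 for Cebpb (adjusted p = 0.0837) and -0.67 for Pnpla2 (adjusted p = 0.105). Leaving out W18S66 ended the Cebpd call (adjusted p = 0.0538), and leaving out W18S42 ended the Pnpla2 call (adjusted p = 0.0506).

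In KO muscle none of the 10 was called with age, where 5.57% of all genes were. Of the 10, 1 had an unadjusted p under 0.05, as did 3386 of all 13237 genes tested. Neither edgeR nor DESeq2 called any of the 10. The same 3 genes had differences of -0.92 (Cebpb), -1.51 (Cebpd) and -0.45 (Pnpla2). The older KO libraries were widely spread for Cebpd, with 35.6, 57.4, 188, 219 and 594 CPM, and K18S62 was the highest of them for Cebpb and Pnpla2 too. The interaction test called none of the 10 in any tissue, where 0% of all genes were called in each. The age differences are thus not shown to depend on the genotype, for the 10 or for any other gene.

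**Figure D5:**
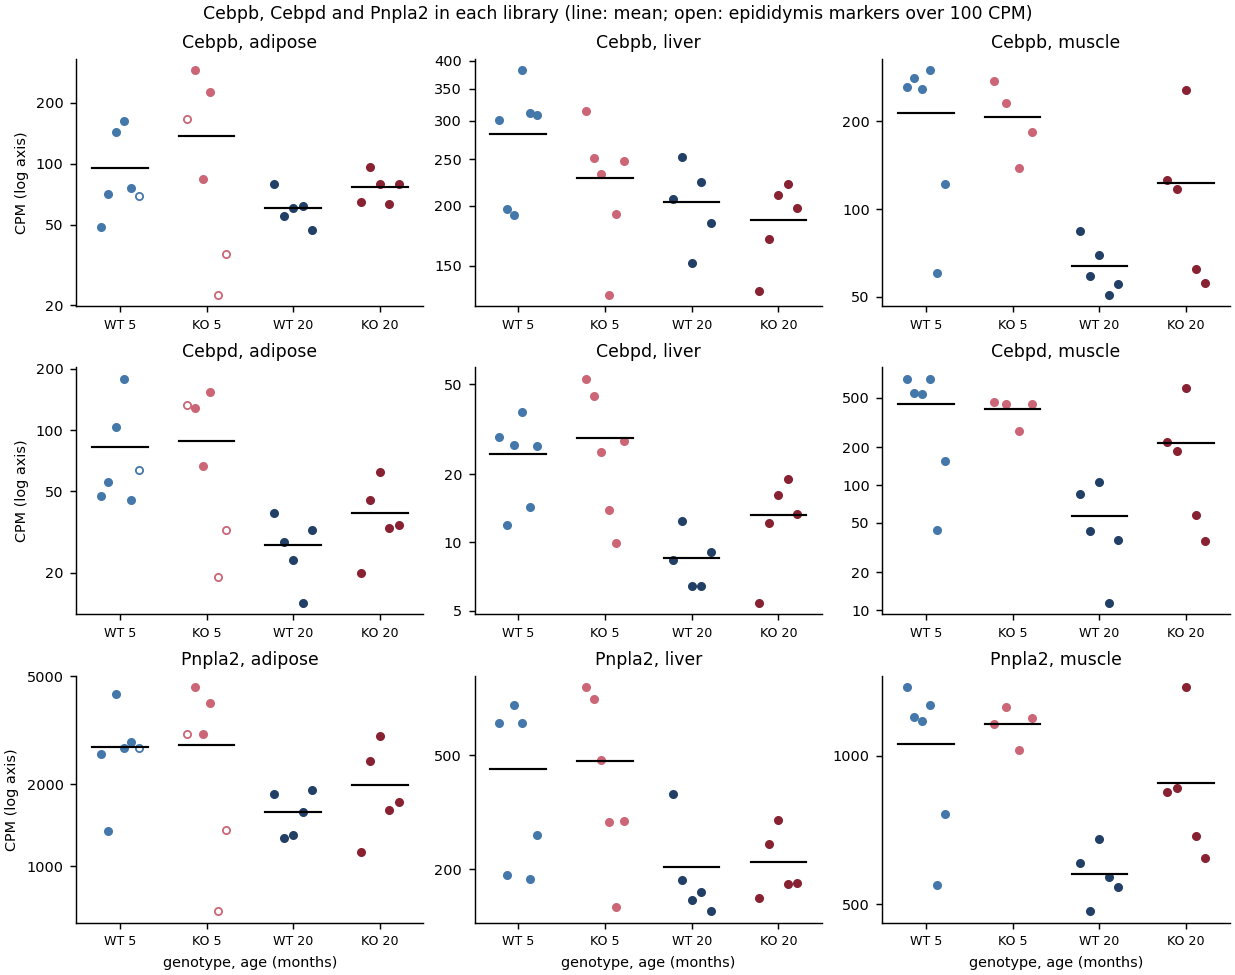
Deposited CPM of Cebpb, Cebpd and Pnpla2 in each library of the 3 tissues by genotype and age in months, on log axes; lines are means, and open points are the adipose libraries with summed epididymis markers over 100 CPM. In WT muscle 5 of the 6 young libraries lie above all older ones for each gene, and W5S5277 lies among the older ones.

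Of the pathway lists in WT muscle, 3 of 15 adipogenesis activators were lower at 20 months, where 7.68% of all genes were called lower (Klf15 at -1.16, Egr2 at -0.75 and Bmp4 at -0.71), as were the inhibitors Foxo1 (-1.70) and Gata2 (-0.47). Of the lipolysis genes, the beta adrenergic receptor Adrb3 (-1.05) was lower, and Abhd5, which activates the Pnpla2 lipase, was higher (0.52). Gpam (1.25) and the fatty acid activating enzyme Acsl1 (0.73) were higher, and Lmf1, which matures lipoprotein lipase, was lower (-0.33). In KO muscle Bscl2 (-0.54), Adora1 (-0.81) and Gpihbp1 (-0.71) were lower and Vldlr (0.72) was higher. Some of these levels were low. From 5 to 20 months the mean went from 1.68 to 0.0864 CPM for Adrb3 and from 2.95 to 1.24 CPM for Egr2 in WT. For Adora1 in KO it went from 1.99 to 0.690 CPM.

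Some markers of other cell types were called lower in WT muscle with age as well. Of 6 macrophage markers, 3 were called lower and none had a difference above 0 (median -0.98), and their sum ranged from 75.4 to 257 CPM in young WT and from 40.6 to 126 CPM in older WT. Of 6 adipocyte progenitor markers, 2 were called lower and none had a difference above 0 (sums of 229 to 398 and 154 to 232 CPM). The adipocyte marker sum ranged from 758 to 1170 CPM in young WT and from 620 to 697 CPM in older WT. Most of that sum was Slc2a4 (means of 831 and 620 CPM), the insulin-responsive glucose transporter gene that muscle fibres also express. The sum is therefore not a measure of adipocyte content alone. Of the 10 adipocyte markers, 3 were called lower, namely Cfd (-2.02), Adrb3 (-1.05) and Slc2a4 (-0.41). The adipocyte hormone gene Lep was called higher (1.94) and was the only 1 with a difference above 0 (median -0.60). The part of these markers in the age differences was not tested.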

How the data were processed

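Expression was measured by RNA sequencing of poly(A)-selected RNA with a strand-specific kit, per the labels' protocols. The authors deposited 36333 gene entries for 64 libraries as CLC output headed CPM, per the file headers. With column sums from 0.529 to 1.64 M (M, mega), they were taken as a deposited signal, namely reads scaled by a factor per library. All values (100%, within 0.01) were whole multiples of 1 read, which gave depths of 15.4 to 28.5 M reads, and precision was judged from the spread between libraries. The aligner is not given in the sources used here, and the use of strand in counting is not stated.

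IDs were matched to symbols with the RefSeq table of GRCm38.p6 (35336 of 36332 IDs). In each tissue, a gene was tested if it exceeded 1 CPM in 5 or more libraries (4 or more in muscle), the size of the smallest group. The test was limma 3.58.1 under R 4.3.3 on log2(CPM + 1), using 1 mean per group, an intensity trend and Benjamini-Hochberg adjustment. Tissues were compared in 1 fit over the 5-month libraries. Alternatives were a pseudocount of 0.1, no filter, edgeR 4.0.16 and DESeq2 1.42.0 on the recovered reads, TMM scaling, only the 2 groups compared, libraries left out singly or by Xist or epididymis markers, and, chosen after seeing the data, equal recovered depth for the tissue comparison. In adipose tissue, edgeR called 9 genes between genotypes at 5 months, 0 at 20 months, and 1706 (WT) and 2262 (KO) with age. The fit was tested on simulated data with known changes.

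All 10 members were named in every comparison. From the other lists, at most the 4 called genes with the largest absolute difference per comparison were named, and likeness to the members was ranked by Pearson's r. Some genes that this rule names are not reported here. The pathway lists and markers, like the members, were chosen with earlier results of these data known. Levels per kilobase used exon unions of GENCODE M21.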

Additional observations from a re-analysis of the deposited data

Results flagged for a closer look

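Of 120 combinations of 1 of the 10 genes with 1 group, 14 held a library that stood apart from the rest of its group by Dixon's test on CPM. That test flags about 1 in 20 where values are normally distributed, which was not tested for CPM. The rate over all genes was not computed, so the count is not a result about the 10 genes. In adipose tissue the flagged cases were Fabp4 in W5F5277 (17192 CPM), Cebpa (765 CPM) and Dgat2 (806 CPM) in W18F24, Dgat2 in K5F5218 (342 CPM) and, as the lowest of its group, Apmap in K18F30 (65.0 CPM). In liver they were Pparg (36.04 CPM) and Lpl (26.1 CPM) in K18L06, Lipe in K18L09 (30.4 CPM), Cebpa in K5L5218 (926 CPM), Pnpla2 in W18L01 (366 CPM) and Lpl in W5L5277 (52.5 CPM). In muscle they were Dgat2 in K5S4285 (187 CPM), Cebpa in W18S42 (27.9 CPM) and, as the lowest of its group, Cebpd in K5S5116 (272 CPM). W18S42 also had a hepatocyte marker sum of 2820 CPM, where the median of its group was 0 CPM. The part of this in its Cebpa level was not tested.

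In 4 cases every library of one tissue lay on one side of the mean of the reference group and every library of another tissue on the opposite side, and the difference itself was not tested. Lipe in 5-month KO against WT differed by -1.32 between adipose tissue and muscle, as a difference of mean log2 differences. Dgat2 at 20 against 5 months differed by 2.15 in WT and 2.39 in KO between adipose tissue and muscle, and by 0.72 in KO between liver and muscle.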

How the results depend on the processing

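No called difference of the 10 genes changed sign under any alternative run. Of 2900 recomputed values of uncalled differences, 192 had the opposite sign. In adipose tissue at 5 months, the number of genes called between genotypes was 1 in the reported fit, 0 with a pseudocount of 0.1, without the filter, with edgeR, with only the 2 groups compared and without the libraries with epididymis markers, 2 with DESeq2 (which called 304 genes in all, against 15) and 3 without the libraries with Xist. For WT adipose tissue with age it was 1, and 2 with edgeR, DESeq2, TMM scaling, only the 2 groups, and without the libraries with epididymis markers. For KO adipose tissue with age it was 0, then 1 with DESeq2 and 2 without the libraries with epididymis markers. For WT liver with age it was 2, then 1 without the filter, 4 with DESeq2 and 1 without the libraries with Xist. For KO liver with age DESeq2 gave 1 in place of 0, and for WT muscle with age 0 remained of 3 without the libraries with Xist. The cause of these changes was not tested, beyond the fewer libraries or genes that an alternative leaves. Leaving out 1 library at a time gave 0 to 1 called genes in adipose tissue between genotypes at 5 months, 0 to 1 in KO with age, 1 to 3 in WT liver and 0 to 2 in KO liver with age, 2 to 4 in WT muscle with age, and 8 to 9 between adipose tissue and muscle. Among all genes, the share of calls that were higher with age in WT adipose tissue was 68.8% as reported, 51.9% with edgeR and 47.2% with DESeq2 (KO 73.6%, 44.1% and 39.9%, and 59% with TMM). In KO adipose tissue edgeR and DESeq2 moved the median difference with age over all genes by -0.113 and -0.131. Between genotypes at 5 months the share of higher calls in adipose tissue was 33.3% as reported, 44.4% with edgeR, 45.5% with TMM and 68.8% with DESeq2. In liver TMM moved the share with age from 39.4% to 50.2% (WT) and from 56.2% to 68.2% (KO), and in WT muscle DESeq2 moved it from 58.7% to 46.5%. DESeq2 called more genes with age, 2696 against 1539 in WT and 3297 against 2033 in KO adipose tissue, 1459 against 929 and 778 against 386 in liver, and 1434 against 737 in KO muscle, and between genotypes 47 against 9 and 18 against 3 in liver and 5 against 0 and 42 against 4 in muscle (5 and 20 months). Replicate numbers are shared between tissues at 5 months; of 28 same-numbered pairs 17 had a correlation of deviations over 0.1 and 19 correlated best with their own number, among them all 5 WT pairs of liver and muscle (0.116 to 0.253). This is a hint of pairing from the data, but the labels do not state one and not every pair was over 0.1, so the reported fit has no block. With the replicate block (consensus correlation 0.0566) the tissue comparisons called 9, 9 and 8 of the 10 genes, as without it. The fewest reads on any of the 10 genes in a library were 62, for Pparg in W5S5007, so counting error is largest for the low levels.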

Other observations

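At 5 months some numbers in the library codes occur in more than 1 tissue, and Cebpd and Pnpla2 were lowest in the same number in some tissues and not in others. Among young KO libraries Cebpd was lowest in K5F5218 (19.0 CPM) and K5L5218 (9.91 CPM), as was Pnpla2 (682 and 149 CPM). Among young WT libraries Cebpd was lowest in W5F5277 (45.5 CPM) and W5S5277 (43.6 CPM), and Pnpla2 in W5L5277 (185 CPM) and W5S5277 (546 CPM). Cebpd in young WT liver was instead lowest in W5L5005 (11.9 CPM) and Pnpla2 in young WT adipose tissue in W5F5006 (1344 CPM), and in young KO muscle both were lowest in K5S5116 (272 and 1028 CPM). The labels do not say whether a number marks an animal, though the numbers with Xist above 1 CPM were the same in all 3 tissues. As deviations from the group mean, Cebpd in adipose tissue and muscle had r = 0.882 (rho 0.833) over 8 shared numbers (exact permutation p = 0.00231, two-sided). Without the 2 farthest numbers r was 0.659. Pnpla2 in liver and muscle had r = 0.805 (rho 0.567) over 9 numbers (exact permutation p = 0.00659), and 0.36 without the 2 farthest. Of 30 relations computed, for 10 genes and 3 pairs of tissues, 0 had an adjusted p under 0.05 (0.0692 and 0.0989 for these), so none passed the correction, and 20 had r above 0. These relations were examined after the values were seen.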
